A study of Homo sapiens with 24 samples.

Results

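Genes for 9 proteins of the B cell surface were followed on FOXP1 silencing: MS4A1 (CD20), CD22, CD72, CR2 (CD21), CD37, CD38, CD27, CD24 and CD83. They were chosen by gene name, and all 9 were found among the 30142 genes of the array, on 11 probes. CD22 had 3 probes and each of the others had 1. RNA was compared on 24 two-colour Agilent arrays from 4 cell lines of diffuse large B cell lymphoma (DLBCL): DB and K422, of the germinal centre B cell-like type (GCB-DLBCL), and HBL-1 and OCI-Ly3, of the activated B cell-like type (ABC-DLBCL). Each line was transiently transfected by nucleofection with siFOXP1 #1 (HSS178308) or siFOXP1 #2 (HSS178309) at 1 μM, and each sample was hybridised against the same line given a negative control duplex (siCtrl), 48 h after transfection. There were 3 replicates for each line and siRNA, so 6 arrays for each line, and no line carried any other genetic change named in the labels. Each line is 1 established culture, so its replicates measure the spread between experiments in that culture and not between patients.

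These proteins sense antigen, complement and neighbouring cells for the B cell, and many are used to define its stage. CR2 binds complement fragments and joins CD81 in the co-receptor of the B cell receptor. CD22 and CD72 restrain receptor signalling; CD22 binds sialic acid and CD72 binds the semaphorin SEMA4D. MS4A1 is the target of rituximab and CD37 is a tetraspanin. CD38 is an ectoenzyme that consumes NAD, abundant on germinal centre B cells and plasma cells. CD27, the receptor for CD70, marks memory B cells, CD24 is a small GPI-anchored sialoglycoprotein recognised by SIGLEC10, and CD83 appears on activated and light-zone B cells. FOXP1 is a forkhead transcription factor.

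The probes are shown because each value below is the signal of one short stretch of its transcript. The array places the MS4A1 probe at chr11:59990100-59990159 of hg18, on the plus strand. Its capitals mark the codons of the loop motif bound by rituximab, so the probe read the coding part of the transcript.
MS4A1: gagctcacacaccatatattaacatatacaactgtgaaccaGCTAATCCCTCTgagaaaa
The CD22 probe that stands for the gene lies at chr19:40529395-40529454 and the CD38 probe at chr4:15459283-15459342, both on the plus strand. Capitals mark the stop codon, so both probes read the last codons and the start of the 3′ UTR.
CD22: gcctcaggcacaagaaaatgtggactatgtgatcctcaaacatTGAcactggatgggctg
CD38: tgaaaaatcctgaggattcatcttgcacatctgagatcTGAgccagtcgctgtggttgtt
Of the probes for CD24 and CD27, which had the largest responses, the first 30 bases are given. The CD27 probe is at chr12:6430901-6430960, on the plus strand.
CD24: ctgcctcgacacacataaacctttttaaaa
CD27: agccacaactgcagtcccatcctcttgtca
The array lists the CD24 probe at chrY:19612206-19612265, on the minus strand, where hg18 held a near-identical copy of the gene. Signal from CD24 and from its copies cannot be separated by this probe, and CD24 values are uncertain to that extent. The other members were read at chr19:54535320-54535379 (CD37), chr1:205729565-205729626 (CR2) and chr6:14244668-14244727 (CD83) on the plus strand, and at chr9:35600685-35600744 (CD72) on the minus strand.

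Levels were read as the log2 Cy5 signal, the channel that held siCtrl RNA, and silencing as log2(siFOXP1/siCtrl). A silencing effect was called at an adjusted p below 0.05 over all genes of the array in limma with a log2 change of at least 0.5 (1.41-fold). FOXP1 itself was lower with siFOXP1 on all 24 arrays. Its log2 ratio was -1.96 ± 0.54 (SD, n = 6 arrays) for OCI-Ly3, -1.74 ± 0.55 for HBL-1, and -1.34 ± 0.47 for K422, and it fell by 2.00 ± 0.79 on the log2 scale in DB. Between 57.2% and 64.4% of probes were well above background in at least 1 channel of an array. All 5 B cell markers (CD79A, CD79B, PAX5, BLNK and MS4A1) were well above background on every array, and all 5 activated B cell-like markers were so in HBL-1 and OCI-Ly3. Of these 5, IRF4 and CCND2 were not well above background on any array of DB or K422, but BATF and PIM1 were on every array of both. ENTPD1 was so on every DB array and on no K422 array. All 5 germinal centre B cell-like markers were well above background on every DB and K422 array. Of them, BCL6 and LMO2 were also so on every array of HBL-1 and OCI-Ly3. Of the 6 T cell markers, CD3D, CD3E and CD3G were well above background on every K422 array, with a summed list signal of 10087 to 10925 over its replicates against 58.9 to 148 in the other lines. None of the 6 was called on silencing in K422, and their part in the K422 values was not tested. These are T cell genes, the identity of the culture was not checked here, and each K422 value below, with each difference from K422, is that of the culture so labelled. DB and OCI-Ly3 were scanned in one session and K422 and HBL-1 in another, so levels were compared between DB and OCI-Ly3 and between K422 and HBL-1. Other comparisons of levels cannot be told apart from the session.

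In siCtrl cells the antigens divided the lines sharply. CD24 and CD27 were far brighter in the GCB-DLBCL lines, and CD83 in the ABC-DLBCL lines. CD24 had a log2 signal of 12.38 ± 0.35 (SD, n = 3 replicates) in DB and 14.30 ± 0.09 in K422, against 7.81 ± 0.24 in HBL-1 and 8.26 ± 0.13 in OCI-Ly3. It was 17.4-fold lower in OCI-Ly3 than in DB (limma, adjusted p = 1.2e-08) and 89.8-fold lower in HBL-1 than in K422 (adjusted p = 3.8e-10). CD27 was at 12.51 ± 0.40 in DB and 12.94 ± 0.16 in K422, against 7.26 ± 0.31 for HBL-1 and 4.11 ± 0.49 for OCI-Ly3. The OCI-Ly3 value lay at the edge of detection, since the probe was well above background in Cy5 on 2 of 6 arrays there. HBL-1 had 51.3-fold less CD27 signal than K422 (adjusted p = 2.6e-08).

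CD83 ran the other way, with 13.78 ± 0.11 for HBL-1 and 13.17 ± 0.17 for OCI-Ly3 against 9.87 ± 0.33 for DB and 6.60 ± 0.51 for K422. CD83 was 9.82-fold higher in OCI-Ly3 than in DB (limma, adjusted p = 8.5e-07) and 146-fold higher in HBL-1 than in K422 (adjusted p = 1.8e-09). For CD24, CD27 and CD83 no replicate of a GCB-DLBCL line overlapped a replicate of an ABC-DLBCL line. The share of all genes without such overlap was not counted, and part of each of these comparisons runs across scan sessions.

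CD38, CR2, CD22 and CD72 followed other orders, with replicates of the subtypes overlapping or interleaved. CD38 was brightest in HBL-1 (9.72 ± 0.22), followed by DB (7.39 ± 0.06) and OCI-Ly3 (5.32 ± 0.34). In K422 the CD38 probe was not well above background in either channel on any of its 6 arrays, and HBL-1 had at least 55.6-fold more. CR2 stood out in OCI-Ly3, at 9.77 ± 0.33 against 5.24 ± 0.21 in DB, a 23.1-fold difference (limma, adjusted p = 1.2e-07), and lay at 6.01 ± 0.55 in K422 and 6.56 ± 0.19 in HBL-1. CD22 was 4.63-fold higher in OCI-Ly3 (10.99 ± 0.06) than in DB (8.78 ± 0.73; adjusted p = 9.2e-04), while the test did not separate K422 (9.95 ± 0.83) from HBL-1 (9.32 ± 0.07; adjusted p = 0.26). CD72 was brightest in HBL-1, at 11.39 ± 0.16, which was 23.3-fold above K422 (6.85 ± 1.14; adjusted p = 8.9e-06), with DB at 9.68 ± 0.14 and OCI-Ly3 at 9.06 ± 0.35. In K422, replicate 1 was above the other two for CD72 (8.14 against 6.38 and 6.01), CD22 (10.90 against 9.59 and 9.37) and MS4A1 (11.39 against 10.52 and 10.47).

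MS4A1 and CD37 had the smallest range over the lines. MS4A1 lay between 10.79 ± 0.52 in K422 and 12.15 ± 0.07 in OCI-Ly3, with HBL-1 at 11.58 ± 0.02 and DB at 11.30 ± 0.33. OCI-Ly3 was 1.80-fold above DB (limma, adjusted p = 0.012) and HBL-1 was 1.72-fold above K422 (adjusted p = 0.019), both under the 2-fold limit. Each MS4A1 replicate of an ABC-DLBCL line was above each replicate of a GCB-DLBCL line. The lowest of HBL-1 (11.56) was only just above the highest of DB (11.55), which was scanned in the other session. The share of all genes with such an order was not counted. CD37 was bright everywhere, from 12.77 ± 0.10 in K422 to 13.84 ± 0.04 in HBL-1, a 2.10-fold difference (limma, adjusted p = 5.8e-05). Within a scan session, DB and OCI-Ly3 were not separated for CD72 (adjusted p = 0.30) or CD37 (adjusted p = 0.29), nor were HBL-1 and K422 for CR2 (adjusted p = 0.13). Other neighbours in the order of levels were scanned in different sessions, and their differences are left as values. A level difference was called at an adjusted p below 0.05 and at least 2-fold. By that rule 6 of the 9 antigens differed between OCI-Ly3 and DB, where 26.7% of all genes did, and 6 of 9 between HBL-1 and K422, where 25.8% did.

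**Figure D1:**
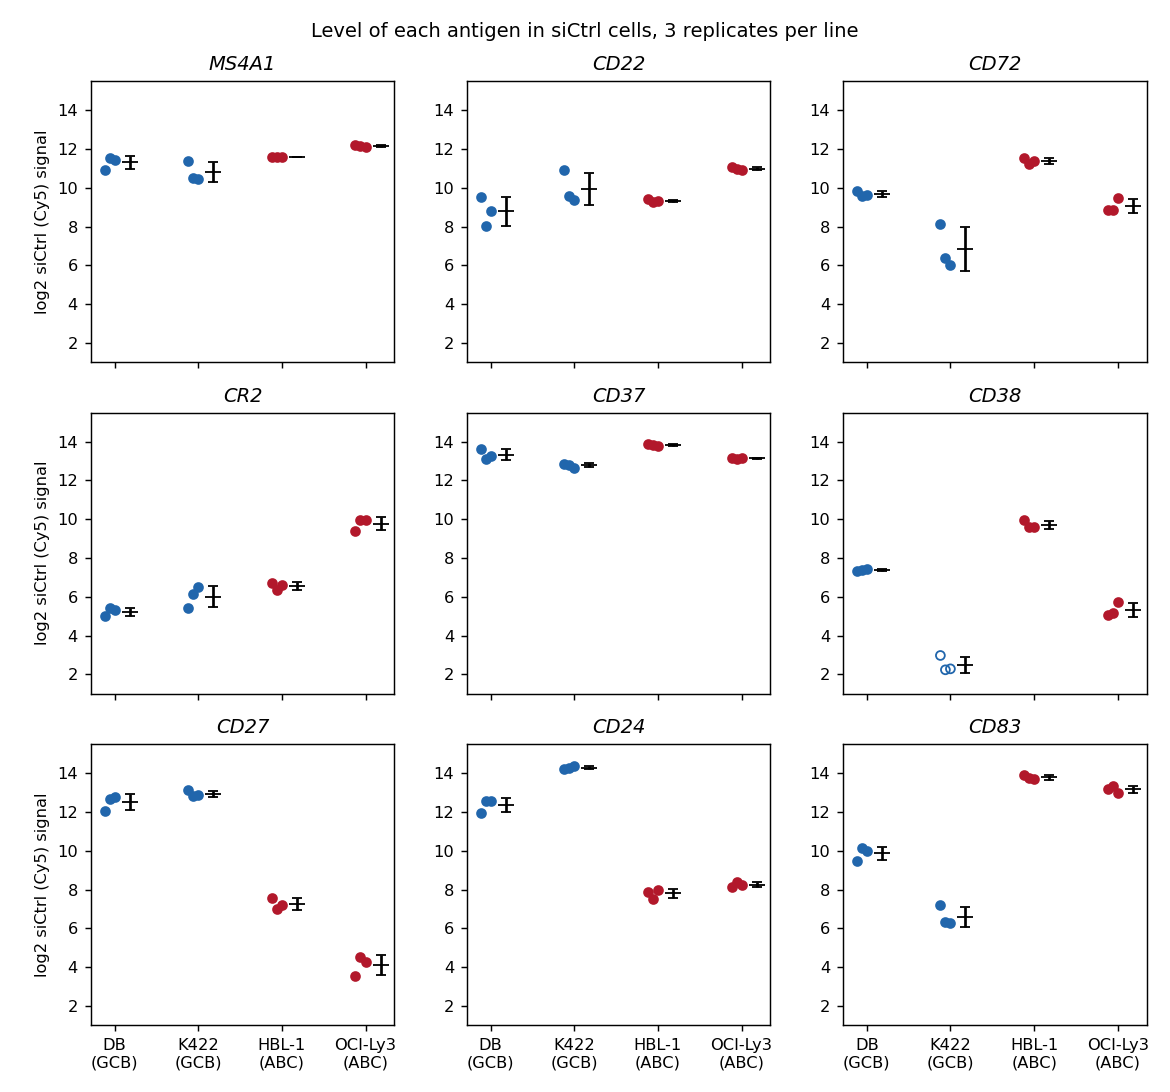
Level of the 9 antigens in siCtrl cells, as log2 Cy5 signal (vertical axis) in each line (horizontal axis; blue GCB-DLBCL, red ABC-DLBCL). Points are 3 replicates, bars the mean ± SD, and open points are a probe not well above background on any array of the line. CD24 and CD27 are high in DB and K422 and CD83 is high in HBL-1 and OCI-Ly3; levels of different antigens come from different probes and are not comparable.

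On FOXP1 silencing, 5 of the 9 antigens rose in HBL-1 (CD24, CD27, CD38, CD22 and CD37) and 2 rose in OCI-Ly3 (CD24 and MS4A1). In HBL-1 5.73% of all genes were called higher, and in OCI-Ly3 2.79%. No antigen was called in DB or K422, where 1.33% and 2.34% of all genes were called higher. None was called lower in any line. Such calls made up 0.83% of all genes for DB, 1.61% for OCI-Ly3, 2.10% for K422 and 4.21% for HBL-1. At these shares a set of 9 genes would often hold none, so their absence says little about the antigens. By limma at an unadjusted p below 0.05, in either direction and with no fold limit, there were 2 antigens in DB, where 23.5% of all genes passed, and 4 in K422, where 30% did, beside 9 for HBL-1 (38.4%) and 7 for OCI-Ly3 (29.2%). The methods' t-test called none in DB or K422 at the fold limit of 0.5 on the log2 scale, with or without adjustment of p. On the log2 scale the median over the 9 antigens was 0.52 for HBL-1, 0.27 for OCI-Ly3 and 0.13 for both GCB-DLBCL lines, beside a median of 0 over all genes of each line. The dyes were never swapped (siFOXP1 RNA carried Cy3, siCtrl RNA Cy5), and dye bias and silencing cannot be told apart inside 1 line. A dye bias that is equal in all lines cancels in the differences between lines given further on. In these cultures fewer cells of a kind and less RNA per cell cannot be told apart.

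**Figure D2:**
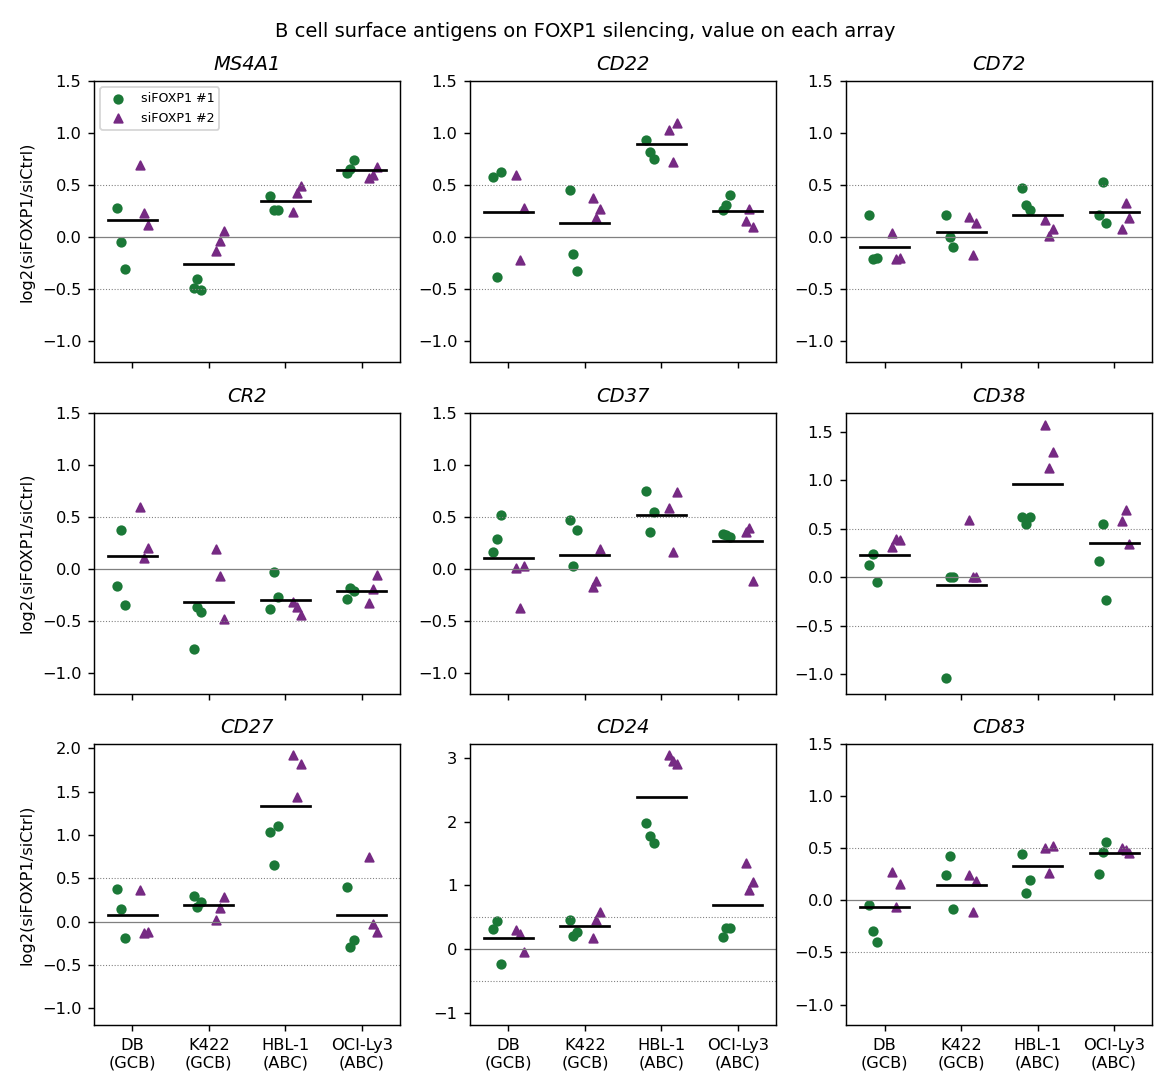
log2(siFOXP1/siCtrl) of the 9 antigens (vertical axis) on each of the 6 arrays of a line (horizontal axis). Circles are siFOXP1 #1, triangles siFOXP1 #2, black lines the mean of 6 arrays, and dotted lines the limit of 0.5 in either direction. Of the HBL-1 arrays, all 6 lie above 1.6 for CD24 and above 0.6 for CD27.

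CD24, the GPI-anchored ligand of SIGLEC10, had the largest response. In HBL-1 its log2 ratio was 1.98, 1.78 and 1.67 with siFOXP1 #1 and 3.04, 2.95 and 2.92 with siFOXP1 #2. Every array was above the limit and the siRNAs did not overlap. The mean was 2.39 ± 0.65 (SD, n = 6 arrays), a 5.24-fold rise (limma, adjusted p = 1.7e-12). In OCI-Ly3 the ratios were 0.20, 0.32 and 0.32 with siFOXP1 #1 and 1.36, 0.92 and 1.05 with siFOXP1 #2. The OCI-Ly3 mean of 0.70 ± 0.48 (1.62-fold, adjusted p = 9.6e-06) therefore rested on siFOXP1 #2: with siFOXP1 #1 alone CD24 was at 0.28 and was not called (adjusted p = 0.12). CD24 in K422 was above 0 on 6 of 6 arrays, at 0.36 ± 0.17 (adjusted p = 3.7e-03), under the fold limit, and in DB it was at 0.17 ± 0.25. With siFOXP1 #2 the Cy3 signal of CD24 in HBL-1 reached 10.77 ± 0.31 (SD, n = 3 arrays), which is below the siCtrl signal of either GCB-DLBCL line. That sets Cy3 against Cy5, and DB was scanned in another session than HBL-1, so the order is a description.

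CD27, the memory B cell receptor for CD70, was called in HBL-1 and in none of the other lines. Its ratios there were 1.03, 0.65 and 1.10 with siFOXP1 #1 and 1.93, 1.44 and 1.82 with siFOXP1 #2. The mean of 1.33 ± 0.49 (SD, n = 6 arrays) was a 2.51-fold rise (limma, adjusted p = 1.5e-07). In DB, where CD27 was abundant, it was at 0.07 ± 0.26, and in K422 at 0.19 ± 0.10. In OCI-Ly3 the ratio of 0.08 ± 0.40 came from a probe near background and ranged from -0.29 to 0.74.

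CD38, the NAD-consuming ectoenzyme, rose 1.95-fold in HBL-1, at 0.96 ± 0.43 (SD, n = 6 arrays; limma, adjusted p = 6.9e-06). Its ratios were 0.62, 0.55 and 0.62 with siFOXP1 #1 and 1.57, 1.13 and 1.29 with siFOXP1 #2, again without overlap. In OCI-Ly3 CD38 was at 0.35 ± 0.34 (adjusted p = 0.048), under the fold limit, with 5 of 6 arrays above 0, and in DB at 0.24 ± 0.17 (adjusted p = 0.25). In K422 the probe gave no ratio that can be read, since both channels were at background and 4 of 6 arrays carried an exact 0.

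Of the inhibitory receptors, CD22 rose in HBL-1 by 0.89 ± 0.15 (SD, n = 6 arrays; 1.86-fold; limma, adjusted p = 1.5e-05), with all arrays between 0.72 and 1.10. In OCI-Ly3 it was above 0 on 6 of 6 arrays, between 0.10 and 0.41, but was not called (0.25 ± 0.11, adjusted p = 0.17). In DB the replicates disagreed, from -0.38 to 0.62, and CD22 passed the rule at 0.52 (adjusted p = 3.2e-03) when DB replicate 2 was left out. The other CD22 probes, at chr19:40519234-40519293 and chr19:40519605-40519664 and assigned to another cDNA, gave 0.56 ± 0.12 (adjusted p = 5.7e-04) and 0.53 ± 0.35 (adjusted p = 0.087) in HBL-1, both above 0 and smaller than the 3′ probe. In OCI-Ly3 they were at 0.12 ± 0.08 and -0.32 ± 0.18, in K422 at -0.06 ± 0.21 and -0.44 ± 0.40, and in DB at 0.39 ± 0.47 and -0.05 ± 0.91. The CD22 probes, with the 3′ probe at 0.13 in K422, thus disagreed in sign in each of these lines. The CD22 differences between lines given further on come from the 3′ probe. CD72 passed the fold limit in no line: it was at 0.22 ± 0.17 in HBL-1 (adjusted p = 0.019) and 0.25 ± 0.16 in OCI-Ly3 (adjusted p = 0.015), above 0 on all 12 arrays of both, at 0.05 ± 0.16 in K422 and at -0.09 ± 0.18 in DB.

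CR2, the complement receptor, was the only antigen below 0 on every array of HBL-1 and OCI-Ly3. Its log2 ratio was -0.30 ± 0.14 for HBL-1 (limma, adjusted p = 0.017), -0.21 ± 0.09 for OCI-Ly3 (adjusted p = 0.13) and -0.32 ± 0.34 for K422 (adjusted p = 0.020), all under the fold limit, while DB was at 0.13 ± 0.34. For K422, siFOXP1 #1 alone gave a call of -0.52 for CR2 (adjusted p = 0.014), which siFOXP1 #2 did not give (-0.12, adjusted p = 0.76).

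MS4A1, the rituximab target, was called in OCI-Ly3. Its ratios were 0.62, 0.66 and 0.74 with siFOXP1 #1 and 0.57, 0.60 and 0.67 with siFOXP1 #2, the tightest set among the called values. The mean was 0.64 ± 0.06 (SD, n = 6 arrays), a 1.56-fold rise (limma, adjusted p = 4.0e-06). In HBL-1 MS4A1 was above 0 on 6 of 6 arrays, at 0.35 ± 0.11 (adjusted p = 5.5e-04), and in K422 it lay below 0 on 5 of 6, at -0.25 ± 0.25 (adjusted p = 0.012). Neither reached the fold limit. The K422 value rested on siFOXP1 #1 (-0.47, adjusted p = 3.5e-03), and with siFOXP1 #2 MS4A1 was at -0.04 there. In DB it was at 0.16 ± 0.33. CD37, the tetraspanin, passed the rule narrowly in HBL-1 at 0.52 ± 0.23 (1.44-fold, adjusted p = 1.5e-04), with arrays from 0.16 to 0.75. Without HBL-1 replicate 1 it was at 0.45 and without HBL-1 replicate 3 at 0.46, both under the limit. In OCI-Ly3 CD37 was at 0.27 ± 0.19 (adjusted p = 0.042).

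CD83, the activation antigen, was above 0 on all 6 arrays of both ABC-DLBCL lines and under the fold limit in each, at 0.45 ± 0.10 for OCI-Ly3 (SD, n = 6 arrays; limma, adjusted p = 2.1e-04) and at 0.33 ± 0.19 for HBL-1 (adjusted p = 1.3e-03). In DB it was at -0.06 ± 0.25 and in K422 at 0.15 ± 0.21. Across the antigens at an adjusted p below 0.05 without the fold limit HBL-1 had 9 of 9 (8 higher and CR2 lower), OCI-Ly3 had 6, K422 had 3 and DB had 0, beside 31.2%, 18.8%, 19.4% and 12.1% of all genes in either direction.

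The siRNAs differed in how far they silenced FOXP1, and CD24 differed between them too. FOXP1 was at -1.29 ± 0.25 (SD, n = 3 arrays) with siFOXP1 #1 and -2.19 ± 0.29 with siFOXP1 #2 in HBL-1, and at -1.48 ± 0.08 and -2.45 ± 0.10 in OCI-Ly3. The difference in CD24 between siFOXP1 #2 and siFOXP1 #1 was 1.16 ± 0.16 (SE) in HBL-1 (limma, adjusted p = 2.8e-03) and 0.83 ± 0.16 in OCI-Ly3 (adjusted p = 0.037). The OCI-Ly3 call was narrow and was lost in 9 of the 12 fits that each left out 1 replicate of a line. CD24 was the only antigen called in this comparison, in these lines only, where 0.0995% and 0.126% of all genes were called higher with siFOXP1 #2. In DB and K422, with 0.113% and 0.0597% of all genes called higher, no antigen was called. CD27 and CD38 in HBL-1 differed by 0.80 ± 0.23 (adjusted p = 0.28) and 0.73 ± 0.24 (adjusted p = 0.44), which the test did not separate from 0 over all genes. CD22 and MS4A1 in HBL-1 lay close for both siRNAs, with differences of 0.12 ± 0.24 and 0.08 ± 0.13 (SE). The FOXP1 difference was called in all 4 lines, from -0.85 ± 0.15 in K422 to -1.40 ± 0.15 in DB.

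**Figure D3:**
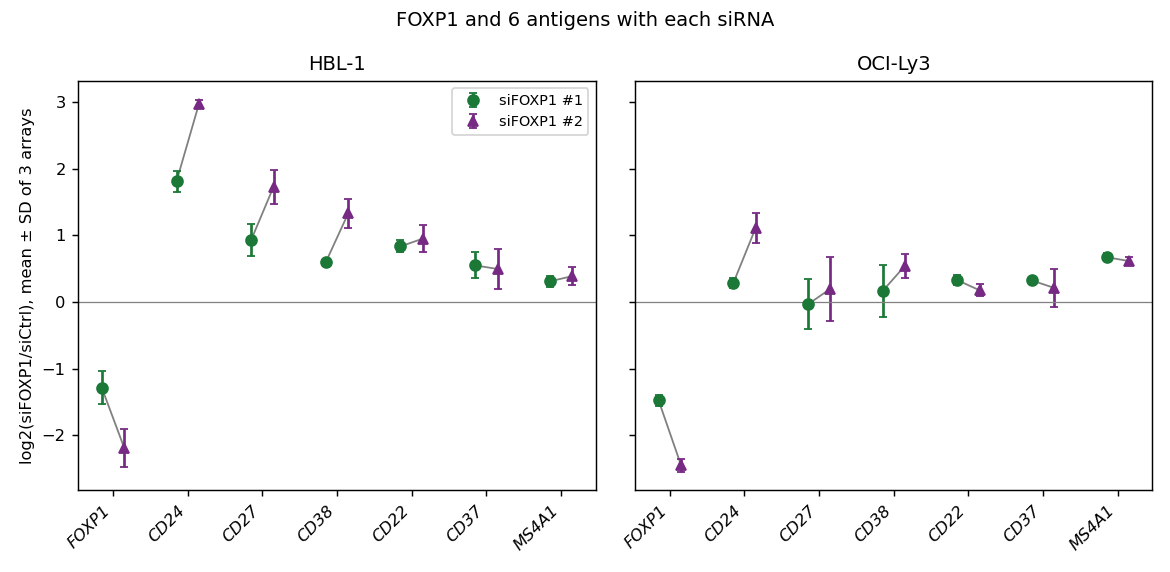
log2(siFOXP1/siCtrl) (vertical axis) of FOXP1 and the 6 antigens called in at least 1 line (horizontal axis), in HBL-1 and OCI-Ly3, as mean ± SD of 3 arrays. Green circles are siFOXP1 #1, purple triangles siFOXP1 #2. CD24 in HBL-1 is at 1.81 with siFOXP1 #1 and 2.97 with siFOXP1 #2, where FOXP1 is at -1.29 and -2.19.

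Whether the lines differed in their response was tested directly. In the comparison of the ABC-DLBCL with the GCB-DLBCL lines, 4 antigens were called higher, where 1.41% of all genes were. The difference was 1.28 ± 0.08 (SE) for CD24 (limma, adjusted p = 1.9e-08), 0.54 ± 0.07 for MS4A1 (adjusted p = 5.6e-05), 0.57 ± 0.12 for CD27 (adjusted p = 4.1e-03) and 0.58 ± 0.12 for CD38 (adjusted p = 5.2e-03). The CD38 value includes K422, where the probe was at background. These are means over 2 lines of each type. Their SE and p come from the spread between arrays of a line and siRNA, and not from that between lines of a type. Between OCI-Ly3 and DB the difference was 0.01 ± 0.16 for CD27 and 0.12 ± 0.17 for CD38 (adjusted p = 0.85), so the CD27 and CD38 values rested on HBL-1 against K422. With same-numbered arrays averaged, CD27 lost its call (0.57, adjusted p = 0.085). CD27 fell to 0.45, under the limit, without OCI-Ly3 replicate 1, and MS4A1 to 0.48 without DB replicate 3. With siFOXP1 #2 alone the MS4A1 difference was 0.34, also under the limit. With siFOXP1 #1 alone, neither CD27 (0.28, adjusted p = 0.55) nor CD38 (0.499, adjusted p = 0.19) was called.

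Within a scan session, 5 antigens were called higher in HBL-1 than in K422 and 2 in OCI-Ly3 than in DB. HBL-1 exceeded K422 for CD24 by 2.03 ± 0.11 (SE; limma, adjusted p = 2.6e-09), CD27 by 1.14 ± 0.16 (adjusted p = 1.8e-04), CD22 by 0.76 ± 0.17 (adjusted p = 7.5e-03) and MS4A1 by 0.60 ± 0.10 (adjusted p = 4.6e-04), with 2.32% of all genes called higher. With same-numbered arrays averaged, CD22 was not called (adjusted p = 0.092). With siFOXP1 #2 alone, neither MS4A1 (0.42, adjusted p = 0.071) nor CD22 (0.67, adjusted p = 0.11) was called. With siFOXP1 #1 alone, neither CD27 (0.70, adjusted p = 0.16) nor CD22 (0.84, adjusted p = 0.090) was called. CD38 also passed the rule, at 1.04 ± 0.17 (adjusted p = 5.9e-04), against a K422 probe at background. It was not called with siFOXP1 #1 alone (0.94, adjusted p = 0.053). On the slide that held both lines (HBL-1 replicate 1 and K422 replicate 3), the differences were 2.09 for CD24, 1.22 for CD27, 1.01 for CD22 and 0.54 for MS4A1. OCI-Ly3 exceeded DB for CD24 by 0.53 ± 0.11 (adjusted p = 0.013) and CD83 by 0.51 ± 0.10 (adjusted p = 7.4e-03), with 0.962% of all genes called higher, and MS4A1 at 0.48 ± 0.10 (adjusted p = 8.1e-03) lay just under the limit. On the slide shared by OCI-Ly3 replicate 1 and DB replicate 3 these 3 differences were 0.92, 0.50 and 0.68. Both calls against DB were narrow. CD24 lost its call without DB replicate 3 (0.37), without OCI-Ly3 replicate 1 (0.49) and without OCI-Ly3 replicate 3 (0.53, adjusted p = 0.053), and CD83 without DB replicate 2 (0.46), DB replicate 3 (0.48) or OCI-Ly3 replicate 3 (0.49). MS4A1 passed the limit without DB replicate 1 (0.64) and without OCI-Ly3 replicate 1 (0.50).

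**Figure D4:**
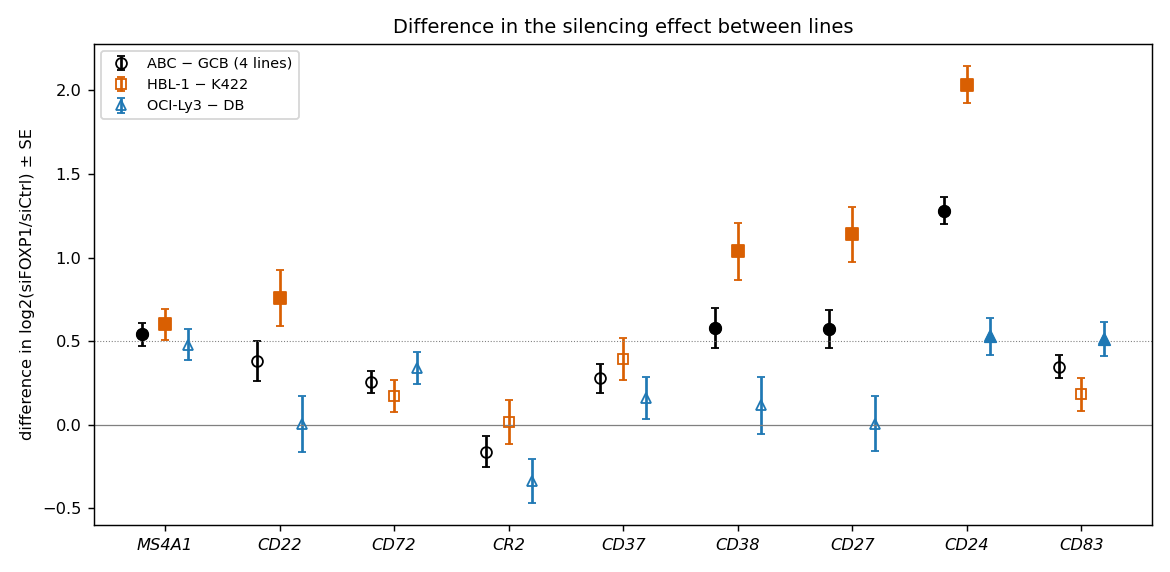
Difference in log2(siFOXP1/siCtrl) between lines (vertical axis, estimate ± SE) for each antigen (horizontal axis). Black circles compare both ABC-DLBCL with both GCB-DLBCL lines, orange squares HBL-1 with K422 and blue triangles OCI-Ly3 with DB; filled symbols are called. CD24 is called in each of the 3 comparisons, at 1.28, 2.03 and 0.53.

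Among the antigens, CD24 and CD27 had the most similar profiles over the 8 means of line and siRNA (Pearson r = 0.96), followed by CD22 and CD27 (r = 0.88); these means share their lines and siRNAs, and the values are descriptions. MS4A1 followed another profile, with r = 0.31 against CD24. Among the 13850 genes with signal well above background in Cy3 or Cy5 throughout, those closest to CD24 were ENTPD4 (r = 0.99) and LOC653773 (r = 0.99). For CD27 they were RNF103 (r = 0.996) and LOC284230 (r = 0.99), and for CD22 the probe A_24_P856176 (r = 0.98) and FBF1 (r = 0.97). CD38 was left out of these profiles, since its K422 means came from a probe at background. CD27 was kept, though its OCI-Ly3 means came from a probe well above background in Cy5 on only 2 of 6 arrays. MS4A1 was matched by BZW2 (r = 0.99) and FBXL10 (r = 0.98), and CD37 by the transcript ENST00000376806 (r = 0.99) and HLA-E (r = 0.99). These are the best matches among 13850 candidates over 8 means, and r takes no account of the sign or size of a change. BZW2 was below 0 in all 8 means, at -0.04 and -0.03 in OCI-Ly3, where MS4A1 rose. By rank (Spearman) the correlation was 0.88 both for BZW2 with MS4A1 and for RNF103 with CD27.

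Of 17 ligands and partners of the antigens, none was called lower, beside 4.21% of all genes in HBL-1, 1.61% in OCI-Ly3, 2.10% in K422 and 0.83% in DB. HBL-1 had 3 called higher (beside 5.73% of all genes), OCI-Ly3 had 2 (2.79%), K422 had 3 (2.34%) and DB had 0 (1.33%). Those in HBL-1 were IFITM1, a member of the CR2 co-receptor complex (1.02 ± 0.23, SD, n = 6 arrays; limma, adjusted p = 4.9e-09), SIGLEC10, the receptor for CD24 (0.58 ± 0.17, adjusted p = 8.1e-05), and ST6GAL1, which makes the sialic acid linkage that CD22 binds (0.57 ± 0.20, adjusted p = 6.7e-09). In K422 they were SEMA4D, the ligand of CD72 (0.87 ± 0.24, adjusted p = 7.1e-07), the ubiquitin ligase MARCH1 (0.67 ± 0.12, adjusted p = 8.7e-05) and PECAM1, a ligand of CD38 (0.65 ± 0.59, adjusted p = 4.2e-03). In OCI-Ly3 PECAM1 (0.53 ± 0.56, adjusted p = 0.018), well above background in Cy5 on 1 of 6 arrays, and FCER2, the low-affinity IgE receptor that binds CR2 (0.51 ± 0.35, adjusted p = 2.3e-04), passed the rule. The list median was 0.08 for HBL-1, 0.20 for OCI-Ly3, 0.03 for K422 and 0.08 for DB, beside 0 over all genes.

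Of 23 other B cell surface antigens, HBL-1 had 6 called higher (beside 5.73% of all genes) and none lower (4.21%). K422 had 1 higher (2.34%) and 2 lower (2.10%), OCI-Ly3 had 1 higher (2.79%) and none lower (1.61%), and DB had none (1.33% higher, 0.83% lower). The largest rises in HBL-1 were LY9, a SLAM family receptor (1.46 ± 0.52, SD, n = 6 arrays; limma, adjusted p = 5.5e-05), TNFRSF13C, the BAFF receptor (1.19 ± 0.19, adjusted p = 1.7e-10), and CD180, a Toll-like receptor homologue (0.71 ± 0.43, adjusted p = 3.8e-03), followed by CD52 (0.61 ± 0.25, adjusted p = 4.2e-06) and the receptor chains CD79B and CD79A. CD180 was also called in OCI-Ly3 (1.09 ± 0.19, adjusted p = 2.6e-04). In K422 MME (CD10) was higher (0.69 ± 0.14, adjusted p = 7.7e-06), and CD48 (-1.24 ± 0.26, adjusted p = 4.7e-08) and CD52 (-0.97 ± 0.16, adjusted p = 9.9e-08) were lower. CD52 thus moved in opposite directions in HBL-1 and K422. The list median was 0.19 for HBL-1, 0.20 for OCI-Ly3 and 0.02 for K422, and was 0 for DB to the precision printed.

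Of the 11 other genes of the CD20 family, OCI-Ly3 had 4 called higher (beside 2.79% of all genes) and HBL-1 had 1 (5.73%). DB (1.33%) and K422 (2.34%) had 0. None was called lower, beside 4.21% of all genes in HBL-1, 1.61% in OCI-Ly3, 2.10% in K422 and 0.83% in DB. MS4A4A (1.35 ± 0.35, SD, n = 6 arrays; limma, adjusted p = 5.5e-15) and MS4A7 (0.83 ± 0.17, adjusted p = 1.9e-05) were detected well above background by both channels of each OCI-Ly3 array. The small p of MS4A4A comes from a pooled spread that includes ratios of exactly 0 in the other lines; with OCI-Ly3 fitted alone its adjusted p was 1.6e-03. MS4A14 and MS4A6E, the other genes called there, were well above background in Cy3 on 1 of 6 arrays and in Cy5 on none. MS4A7 was also called in HBL-1 (0.92 ± 0.41, adjusted p = 2.0e-06). The list median was 0.04 for HBL-1, 0.07 for OCI-Ly3 and -0.01 for K422, and was 0 for DB to the precision printed.

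**Figure D5:**
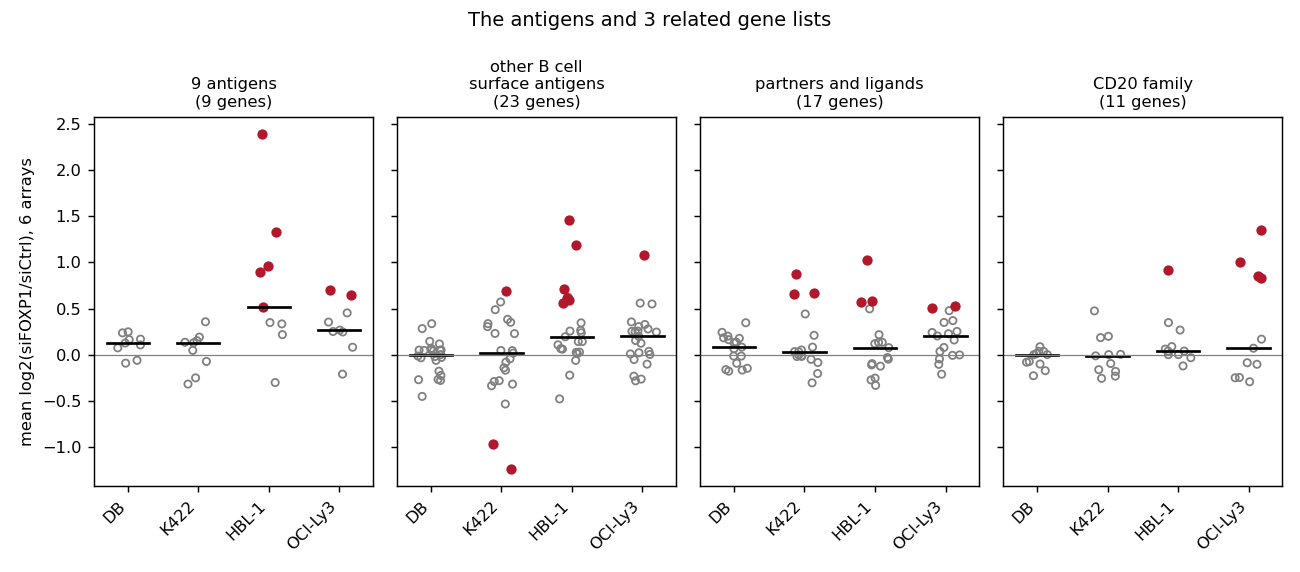
Mean log2(siFOXP1/siCtrl) over 6 arrays (vertical axis) of the genes of each list in each line (horizontal axis). Red points are called, open points are not, and black lines are the median of the list. In HBL-1 5 of the 9 antigens, 6 of 23 other surface antigens, 3 of 17 partners and 1 of 11 CD20 family genes are called higher, beside 5.73% of all genes. MS4A14 and MS4A6E in OCI-Ly3 are among the red points but are near background.

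Promoter windows of 250 bases before to 50 after the start site were held by the RefSeq promoter table (GRCh38.p14) for 7 of the 9 antigens, all except MS4A1 and CD37. On both strands the windows of the 7 were searched for the forkhead-type motif TGTTTAC, which 3.42% of all 35116 windows in the table held. The variant TATTTGT was in 3.50% and the variant TATTTAT in 4.93% of all windows, and at least 1 of the 3 was in 10.9%. None of these letters was in a window of the 7 antigens. At such shares the windows of 7 genes would often hold none, so their absence says little about the antigens.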

How the data were processed

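RNA of 4 lymphoma cell lines was measured on 24 two-colour arrays of 45015 spots (41000 probes, 30142 gene names; hg18 coordinates). The authors deposited Feature Extraction files (versions 10.5.1.1 and 10.7.3.1, by scan session) with background-corrected, dye-normalised signal intensity and the log10 of Cy5/Cy3, and a log2 value table that correlated with the scanner ratios at 0.80 to 1.00. Repeated spots of a probe were averaged after control and outlier spots (113 to 469 an array) were left out, the log10 ratio was turned to log2(siFOXP1/siCtrl), and the brightest probe stood for a gene. The ratios were fitted with limma 3.58.1 (R 4.3.3) over 8 means of line and siRNA, with Benjamini-Hochberg adjustment over all genes; a line's effect is the mean of its siRNAs. For levels, Cy5 intensity was put on the log2 scale and scaled by Aquantile, and arrays of the same line and replicate were averaged. A bound against a probe at background used the lowest signal among probes well above background on each array. Members, lists and rules were chosen with earlier results of these data known. A few listed genes are not reported here and were left out of the list counts and medians. All members, and up to 4 called genes of each list and line, were given with values, with the 2 genes most like each called member except CD38. The replicate number was read as marking 1 of 3 experiments shared by the siRNAs of a line: deviations of same-numbered arrays correlated at 0.05 to 0.29 over all genes and at 0.12 to 0.57 over genes above background in both channels. The fit was tested on simulated data: in HBL-1, over 30142 genes, 82% of genes changed by 0.6 and 94% of genes changed by 1 on the log2 scale were called. The simulated noise was normal and independent between arrays, without the correlation of same-numbered arrays. The changed genes, 50 of each size, were drawn from those above background in a channel on most arrays, so dimmer genes were not covered. The number of arrays limits the precision. Alternatives to the background correction, probe choice, filter, block and samples were run.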

Additional observations from a re-analysis of the deposited data

Results flagged for a closer look

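The response to silencing differed between the 2 ABC-DLBCL and the 2 GCB-DLBCL lines for CD24 (1.28 on the log2 scale), CD27 (0.57), CD38 (0.58) and MS4A1 (0.54), each by the test of the difference in limma. That test uses the spread between arrays and not between lines of a type, so it does not extend to the subtypes at large. Within a scan session the response differed between HBL-1 and K422 for CD24 (2.03), CD27 (1.14), CD38 (1.04), CD22 (0.76) and MS4A1 (0.60), and between OCI-Ly3 and DB for CD24 (0.53) and CD83 (0.51). K422 carried no readable CD38 ratio, which bears on both CD38 values. With siFOXP1 #2 alone MS4A1 lost its call for the subtypes (0.34) and for HBL-1 against K422 (0.42), where CD22 also lost its call (0.67). With siFOXP1 #1 alone CD27 and CD38 lost their calls for the subtypes (0.28 and 0.499). For HBL-1 against K422 with siFOXP1 #1 alone, CD27 (0.70), CD38 (0.94) and CD22 (0.84) lost theirs. OCI-Ly3 and DB were not separated for CD27 (0.01) or CD38 (0.12, adjusted p = 0.85), so the subtype values of both rested on HBL-1. CD24 responded further to siFOXP1 #2 than to siFOXP1 #1 in HBL-1 (1.16) and OCI-Ly3 (0.83).

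Single arrays stood apart from the other 5 of their line in 3 of 36 sets of ratios, where chance sets apart about 1 in 20. CD37 in OCI-Ly3 was at -0.11 on the array of siFOXP1 #2 replicate 3, against 0.30 or more on the others. CD83 in OCI-Ly3 was at 0.26 on the array of siFOXP1 #1 replicate 1, against 0.46 or more. CD38 in K422 was at -1.03 on the array of siFOXP1 #1 replicate 1, with the probe at background.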

How the results depend on the processing

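CD24, CD27 and CD38 in HBL-1 kept their call under all 25 alternatives, with log2 ratios of 1.65 to 2.97, 0.73 to 1.73 and 0.60 to 1.33, and CD24 kept it under all 23 in the difference between the subtypes (0.81 to 1.76). CD22 in HBL-1 and MS4A1 in OCI-Ly3 lost it in 1 of 25, CD24 in OCI-Ly3 in 3 and CD37 in HBL-1 in 4; no called value reversed. Normexp with median centring gave 3 antigens in HBL-1, 0 in OCI-Ly3, 1 for the subtypes, 2 for HBL-1 against K422, 0 for OCI-Ly3 against DB and 0 between siRNAs. Normexp with loess gave 2 for the subtypes, 1 for OCI-Ly3 against DB and 0 between siRNAs. With siFOXP1 #1 alone there was 1 antigen in K422 (CR2, lower), 1 in OCI-Ly3, 2 for the subtypes and 2 for HBL-1 against K422; with siFOXP1 #2 alone, 3 for HBL-1 against K422 and 1 for OCI-Ly3 against DB. Averaging same-numbered arrays gave 0 for OCI-Ly3 against DB (CD24, adjusted p = 0.10; CD83, 0.058) and also ended the calls of CD27 for the subtypes (0.085) and CD22 for HBL-1 against K422 (0.092). Between siRNAs the deposited table gave 1 and lines fitted alone 0. The methods' t-test gave 5 in HBL-1 and 1 in OCI-Ly3 after Benjamini-Hochberg adjustment, which is the methods' rule. At an unadjusted p below 0.05 with the same fold limit it gave 5 and 2. The cause of these changes was not tested. With the replicate block, all calls stayed (5 antigens in HBL-1, 2 in OCI-Ly3). The deposited table shifted the median of all genes in HBL-1 by -0.11.

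Leaving out 1 replicate of a line gave 0 to 1 antigens in DB, 0 in K422, 4 to 5 in HBL-1, 2 in OCI-Ly3, 3 to 4 for the subtypes, 0 to 3 for OCI-Ly3 against DB, 5 to 6 for HBL-1 against K422 and 1 to 2 between siRNAs. Between siRNAs, CD24 in OCI-Ly3 lost its call in 9 of these 12 fits, including fits without replicates of other lines (adjusted p of 0.051 to 0.33). The 6 antigens whose level differed between OCI-Ly3 and DB stayed at 6, and those between HBL-1 and K422 at 6 to 7, with MS4A1 called without K422 replicate 1 (1.08). CD38 fell to a level difference of -0.86 between OCI-Ly3 and DB with normexp, loess and Aquantile. Two-colour signal over background limits CD38 in K422 and CD27 in OCI-Ly3.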
